A study of Homo sapiens
Mus musculus with 2 samples.

Results

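The genes described here belong to the pumps that move sodium, potassium and protons across cell membranes, and were followed in single cells of the mouse colonic epithelium. They are Atp1b1 and Atp1b3, which encode beta subunits of the sodium-potassium pump, Atp12a, which encodes the alpha subunit of the non-gastric proton-potassium pump, and Fxyd3 and Fxyd4, which encode small FXYD subunits that adjust pump activity. They were chosen by name, with no threshold on a measured value but with earlier results of these cells known, and are 5 of the 25504 genes in the count tables. All 5 were detected and all passed the filter of at least 20 UMIs, both over the cell classes and over the colonocyte clusters compared. A UMI (unique molecular identifier) marks a single captured RNA molecule.

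The cells came from 1 untreated wild-type C57Bl6 mouse, and the labels do not give its age. Colonic epithelial cells were released with EDTA, collagenase and DNase, enriched for viable cells, mixed with cells of the human leukaemia line K562, which were not analysed here, and barcoded by inDrop, a droplet method. The 2 libraries, called library 1 and library 2 here, hold different cells of the same animal, so they form 1 group and no condition was compared. Nothing in the labels makes the libraries separate animals. Each p-value therefore sets a class difference against its variation between libraries, which may be technical variation, and not against variation between animals.

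The sodium-potassium pump sits in the basolateral membrane of epithelial cells and keeps sodium low inside them, which drives the absorption of salt and water. Its catalytic subunit does the transport, and its beta subunit is needed to fold the pump and bring it to the membrane. The pump of Atp12a sits in the apical membrane of the colon and exchanges protons for potassium. Fxyd4, also called CHIF for corticosteroid hormone-induced factor, is known from kidney collecting duct and distal colon as a subunit that raises the pump's affinity for sodium. Fxyd3, also called Mat-8, is a pump regulator known from epithelia of the stomach and colon.

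Library 1 held 1738 barcodes with 8602490 UMIs and library 2 held 664 barcodes with 3951918 UMIs, with medians of 4615.5 and 4756.5 UMIs per barcode. After doublets were left out, 1651 and 631 cells formed 11 clusters, found with 12740 genes that did not include the 5 genes described. By markers, 4 clusters were colonocyte-like, 2 goblet-like, 1 deep crypt secretory-like, 1 stem/cycling-like and 1 T cell-like, and 2 shallow or mitochondria-rich clusters stayed unnamed. Colonocyte-like cells, the absorptive cells of the surface, made up 34.8% of cells in library 1 and 29.5% in library 2. All 15 colonocyte markers were detected in them, at a summed level of 50440.3 and 37928 CPM (counts per 1e+06 UMIs of the class), against 12817 and 11474 CPM in goblet-like cells. Of the unnamed clusters, the one led by Dclk1, a tuft cell marker, had UMIs of all 9 tuft markers, at a summed 664 and 981 CPM, against 37.3 to 229 CPM in the other clusters. The same cluster had red blood cell markers at a summed 19733 CPM in library 1 and 0 CPM in library 2. Its myeloid markers summed to 35.9 and 3467 CPM, so it was not a cluster of tuft cells alone. It stayed unnamed under the rule that at least 3 markers of a class have a UMI in at least 10% of a cluster's cells, and its cells had medians of 26.2% and 40.1% mitochondrial UMIs. No cluster was led by enteroendocrine markers. The T cell-like cluster, led by Igha, Ccl5, Gzma and Gzmb, served as a gauge of stray RNA, since T cells should lack the epithelial genes. T cell markers summed to 23069 and 19739 CPM in it. B or plasma cell markers, Igha among them, summed to 50217.5 CPM in library 1 and 93.1 CPM in library 2. The values of this cluster in library 1 may thus not be those of T cells alone. Its 57 and 10 cells were shallow, with medians of 1676 and 2141 UMIs, and their summed colonocyte markers stood at 3408 and 3026 CPM.

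Atp12a, Fxyd4 and Atp1b1 were higher in colonocyte-like cells than in the mean of the other 3 epithelial classes, and Fxyd3 was lower. These are 4 of the 5 genes, and Atp1b3 differed by -0.09 ± 0.16 on the log2 scale (SE; edgeR adjusted p = 0.716). The mean of the other classes is a mean of log2 levels, each class weighing the same, so classes near 0 pull it down. Of all 8057 genes tested, 39.5% passed the threshold in colonocyte-like cells, 20.3% higher and 19.2% lower, so that a call in this comparison is common among all genes. The median log2 fold change over the 5 genes was 1.43, against -0.01 over all genes tested.

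**Figure D1:**
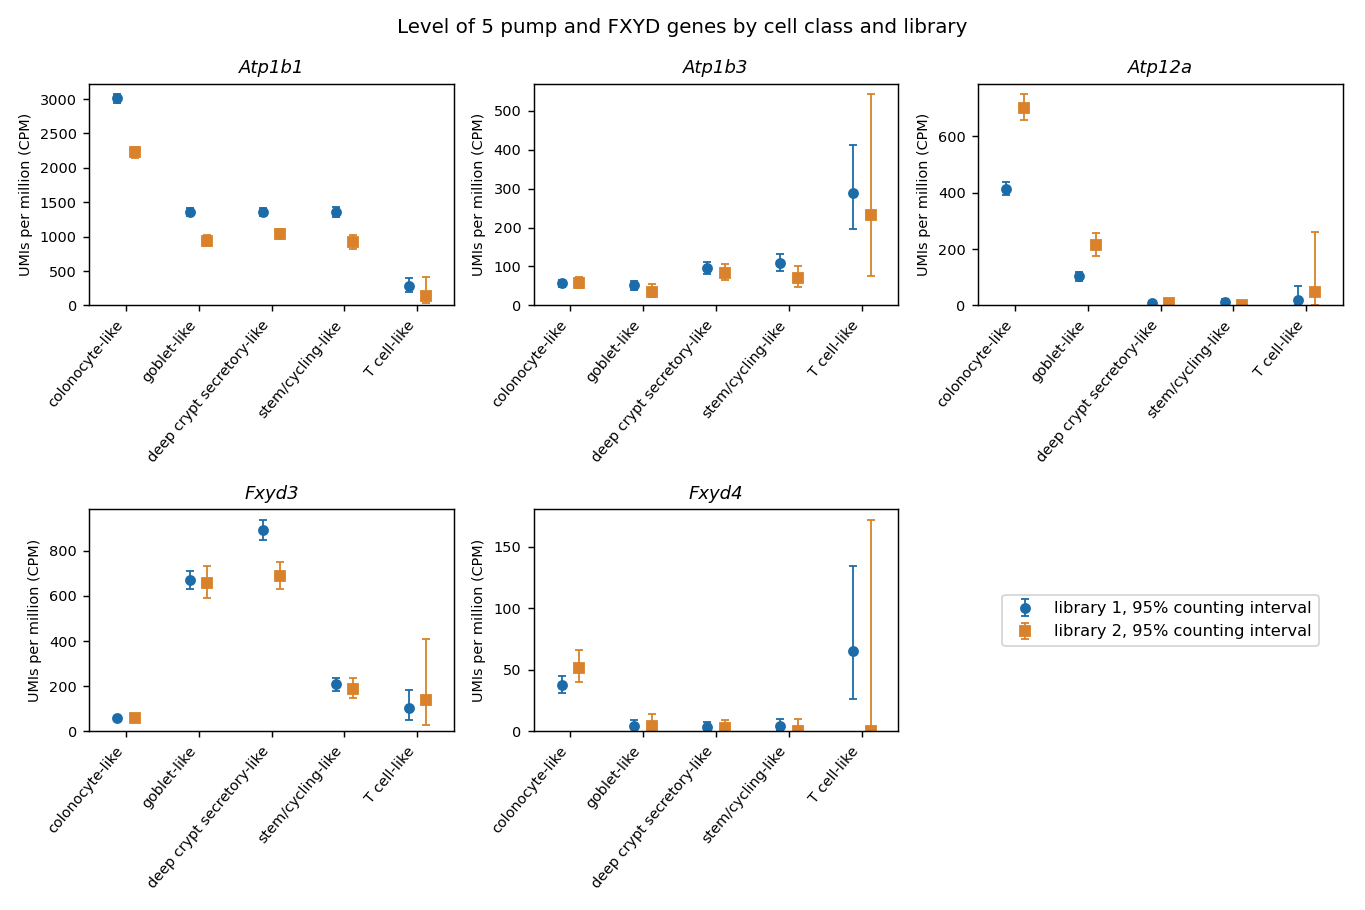
Level of each gene, in CPM on the vertical axis, in 5 cell classes and 2 libraries; circles are library 1, squares library 2, and bars are 95% counting intervals of the UMI sum. Atp1b1 and Atp12a are highest in colonocyte-like cells, Fxyd3 in deep crypt secretory-like and goblet-like cells, and Atp1b3 in T cell-like cells, where few UMIs give wide bars.

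Among the beta subunits, Atp1b1 stood at 3009.8 CPM in library 1 and 2225 CPM in library 2 in colonocyte-like cells. Goblet-like cells had 1354 and 944 CPM, with 1356 and 1042 CPM in deep crypt secretory-like cells, and 1361 and 921 CPM in stem/cycling-like cells. Both colonocyte values lay above every value of the other classes, and within each library the other 3 epithelial classes lay close together. The difference of colonocyte-like cells from the mean of the others was 1.43 ± 0.07 on the log2 scale (edgeR adjusted p = 3.62e-20). CPM values divide by the total UMIs of a class, whereas the edgeR differences rest on totals rescaled by TMM normalization. The scales can thus order classes differently. By CPM the other 3 epithelial classes were nearly equal in library 1, and goblet-like cells lay below deep crypt secretory-like cells in library 2. edgeR called Atp1b1 lower than the mean of the others in deep crypt secretory-like cells (-0.54 ± 0.08) and stem/cycling-like cells (-0.76 ± 0.08). Both of these calls were lost without library as a block (edgeR adjusted p = 0.262 and 0.0911), and that of deep crypt secretory-like cells also with the clustering and readout genes exchanged (-0.17, adjusted p = 0.135). In goblet-like cells it differed by -0.13 ± 0.08 (edgeR adjusted p = 0.268), and it was called lower there, at -0.45, against all other epithelial cells summed. T cell-like cells had 280.1 and 139.7 CPM.

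Of 3573 genes with at least 200 UMIs, those with the patterns most similar to Atp1b1 over the 11 clusters were Epb41l4b (lower Pearson r of log2(CPM + 10) of the 2 libraries 0.968), Tbx22 (0.959), the surface antigen gene Gpa33 (0.951), the respiratory chain gene Cox6c (0.944) and Arl1 (0.943). The clusters share their library and animal, so these values are descriptions.

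Atp1b3, a further beta subunit also known as the surface protein CD298, had fewer UMIs than Atp1b1 in each epithelial class and another order of levels. It stood at 56.7 and 57.1 CPM in colonocyte-like cells, 51.3 and 34.5 CPM in goblet-like, 95.3 and 83.1 CPM in deep crypt secretory-like and 108 and 70.0 CPM in stem/cycling-like cells. It passed the test in none of the 4 classes by edgeR, with the lowest adjusted p in goblet-like cells (-0.52 ± 0.19, adjusted p = 0.0535), where the call was made with DESeq2 size factors (adjusted p = 0.0403). In deep crypt secretory-like cells the difference was 0.32 ± 0.16 and in stem/cycling-like cells 0.29 ± 0.18. The T cell-like cluster had its highest level of the 11 clusters, 289 and 233 CPM, from 31 and 5 UMIs, and this level was not tested. The 95% counting interval in library 1 was 197 to 411 CPM, above the intervals of the epithelial classes there. In library 2 it was 75.6 to 543 CPM, which overlapped the intervals of deep crypt secretory-like and stem/cycling-like cells. B or plasma cell markers were also high in this cluster in library 1.

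Atp1b1 held 98.15% and 97.50% of the UMIs of Atp1b1 and Atp1b3 together in colonocyte-like cells, 96.4% and 96.5% in goblet-like, 93.4% and 92.6% in deep crypt secretory-like and 92.6% and 92.9% in stem/cycling-like cells. In T cell-like cells the share was 49.2% (95% Clopper-Pearson interval 36.1% to 62.3%) and 37.5% (8.52% to 75.5%). UMIs of 2 genes can be captured with different success, so the shares are set against each other across classes only. The genes most like Atp1b3 over the clusters were Atf1 (lower r 0.895), Cdca4 (0.833), Snx17 (0.832), the proton channel gene Hvcn1 (0.820) and Egln1 (0.817), and the T cell-like cluster weighs on all of these.

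Atp12a had the steepest gradient of the 5 genes. Its level was 413 and 702 CPM in colonocyte-like cells, against 103 and 215 CPM in goblet-like, 7.9 and 10.1 CPM in deep crypt secretory-like and 13.1 and 2.59 CPM in stem/cycling-like cells. In each library the order was colonocyte-like over goblet-like over the other 2 epithelial classes, and goblet-like cells of library 2 stayed below colonocyte-like cells of library 1. T cell-like cells had 18.7 and 46.6 CPM from 2 and 1 UMIs, so the values of deep crypt secretory-like and stem/cycling-like cells were no higher than the background. The log2 fold change was 4.70 ± 0.15 in colonocyte-like cells (edgeR adjusted p = 4.26e-26), -3.58 ± 0.34 in deep crypt secretory-like cells (adjusted p = 7.31e-11) and -3.35 ± 0.34 in stem/cycling-like cells (adjusted p = 2.45e-10). In library 2 alone these were 5.44, -3.09 and -5.59, and in library 1 alone 4.46, -3.55 and -2.70.

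Goblet-like cells, which secrete mucus, were called higher for Atp12a than the log2 mean of the other classes, by 2.23 ± 0.19 (edgeR adjusted p = 6.92e-12), a mean that includes 2 classes at the background. On the CPM scale they lay below the mean of the other 3 classes, at 103 against 145 CPM in library 1 and 215 against 238 CPM in library 2. Against all other epithelial cells summed they were called lower, at -0.65 (adjusted p = 2.70e-06). Goblet-like cells thus lay between colonocyte-like cells and the other 2 classes, and the sign of the difference depends on how the others are averaged. In library 2 alone the difference from the log2 mean was 3.24, and in library 1 alone 1.78. Atp12a UMIs of goblet-like cells lay mainly in the cluster led by Clca1, Fcgbp and Zg16, at 163 and 286 CPM, against 19.1 and 39.8 CPM in the cluster led by Best2, Scin and Sval1. With every cell thinned to 2000 UMIs, 24.5% and 34.8% of cells of the Clca1 cluster had an Atp12a UMI, against 2.86% and 5.56% of the Best2 cluster. It was 0 of 14 and 0 of 7 T cell-like cells deep enough to thin, which allows up to 23.2% and 41.0% (exact intervals).

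Colonocyte genes in the Clca1 cluster were measured beside this. For each UMI of Slc26a3, the chloride-bicarbonate exchanger of the colonocyte surface, the Clca1 cluster had 2.20 and 5.58 UMIs of Atp12a, against 0.183 and 0.423 in colonocyte-like cells. Deep crypt secretory-like cells had 0.241 and 0.348, close to the colonocyte ratio. T cell-like cells had 0.286 and 0.5, from 2 and 1 UMIs of Atp12a, and stem/cycling-like cells 0.194 and 0.0313. The Best2 cluster had 0.929 and 1.5. For each 1000 UMIs of the 15 colonocyte markers summed, the Clca1 cluster had 10.2 and 22.1 UMIs of Atp12a. Colonocyte-like cells had 8.19 and 18.5 by that measure, and deep crypt secretory-like cells were lower, at 1.95 and 3.07. T cell-like cells had 5.48 and 15.4, stem/cycling-like cells 1.66 and 0.454, and the Best2 cluster 2.26 and 5.02. Set against Slc26a3 the Clca1 cluster and colonocyte-like cells thus differed over 10-fold, and set against the marker sum they were close. Guca2a, one of the markers, had 93.0 and 157 CPM in the Clca1 cluster, against 1969 and 1554 CPM in colonocyte-like cells. The part of stray colonocyte RNA in the Atp12a of the Clca1 cluster was not tested further.

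The genes most like Atp12a over the 11 clusters were the chloride channel family gene Clic5 (lower r 0.919), the cytochrome P450 genes Cyp2d34 (0.914) and Cyp2d10 (0.890), Sectm1b (0.907) and Sprr2b (0.903). The Cyp2d and Sprr2 genes have close copies, so that their counts are uncertain.

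The 2 FXYD genes were high in different classes. Fxyd3 had 56.4 and 59.4 CPM in colonocyte-like cells, against 670.0 and 658 CPM in goblet-like, 893 and 689 CPM in deep crypt secretory-like and 208 and 187 CPM in stem/cycling-like cells. All secretory values lay above all stem/cycling values, and these above both colonocyte values. T cell-like cells had 103 and 139.7 CPM from 11 and 3 UMIs, with counting intervals that overlap those of colonocyte-like cells in each library, so the colonocyte level could not be told from background. The log2 fold change was -2.78 ± 0.12 in colonocyte-like cells (edgeR adjusted p = 5.92e-21), 1.96 ± 0.10 in goblet-like (adjusted p = 2.54e-19), 1.80 ± 0.09 in deep crypt secretory-like (adjusted p = 1.73e-18) and -0.98 ± 0.12 in stem/cycling-like cells (adjusted p = 2.91e-08). Goblet-like cells thus had the larger edgeR difference, though by CPM deep crypt secretory-like cells were higher in each library. Thinned to 2000 UMIs, 10.1% and 8.02% of colonocyte-like cells had an Fxyd3 UMI, against 68.9% and 67.2% of goblet-like and 77.1% and 74.5% of deep crypt secretory-like cells. The genes most like it were Hepacam2 (lower r 0.959), Qsox1 (0.946), the chaperone gene Dnajc10 (0.942), Tspan13 (0.937) and Bace2 (0.927).

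Fxyd4 was scarce and lay in colonocyte-like cells, at 37.3 and 51.6 CPM from 111 and 66 UMIs. It had 4.27 and 3.84 CPM in goblet-like, 3.38 and 2.52 CPM in deep crypt secretory-like, and 4.02 and 0 CPM in stem/cycling-like cells. The 0 rests on no UMI and allows up to 7.78 CPM (3 counts). Of 198 UMIs in the 4 classes tested, 177 were in colonocyte-like cells, the class where it was high. The 21 in the other classes were just above the filter of 20 UMIs. Fxyd4 had a UMI in 55 of 575 colonocyte-like cells in library 1 and in 24 of 186 in library 2. Its log2 fold change in colonocyte-like cells was 3.87 ± 0.30 (edgeR adjusted p = 1.29e-13), with 5.04 in library 2 alone and 3.41 in library 1 alone. It was called lower in deep crypt secretory-like cells (-1.56 ± 0.58, adjusted p = 0.0433) and stem/cycling-like cells (-1.79 ± 0.67, adjusted p = 0.0412). Each of these 2 calls was lost under 6 of 10 alternative fits. In library 2 alone the values were -0.90 and -4.41, and in library 1 alone -1.49 and -1.27. In T cell-like cells all 7 UMIs came from 1 cell. The most similar genes were Pag1 (lower r 0.777), Eno3 (0.694), B4galt1 (0.652), 2410131K14Rik (0.651) and Ifngr1 (0.645), a weaker likeness than for the other members. That 1 cell put the T cell-like cluster at 65.4 CPM of Fxyd4 in library 1, which weighs on these values.

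Fxyd3 therefore made up 99.4% of the UMIs of both FXYD genes in goblet-like cells and 99.6% in deep crypt secretory-like cells, in each library. In colonocyte-like cells it made up 60.2% (54.2% to 66.0%) and 53.5% (45.0% to 61.9%).

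For the other classes the shares of all genes called give the scale of these counts. In goblet-like cells 2 of the 5 genes were higher and 0 lower, where 19.8% of all genes were called, 12.1% higher and 7.76% lower. In deep crypt secretory-like cells 1 was higher and 3 lower, where 24.2% were called, 13.9% higher and 10.3% lower. In stem/cycling-like cells 0 were higher and 4 lower, where 26.7% were called, 13.2% higher and 13.5% lower. These comparisons are linked, since each class enters the mean that the others are set against. A gene high in colonocyte-like cells is thus pulled towards lower in the other classes, so the counts are not separate findings. Each test had 3 residual degrees of freedom, and the small p-values rest on a spread pooled over genes.

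**Figure D2:**
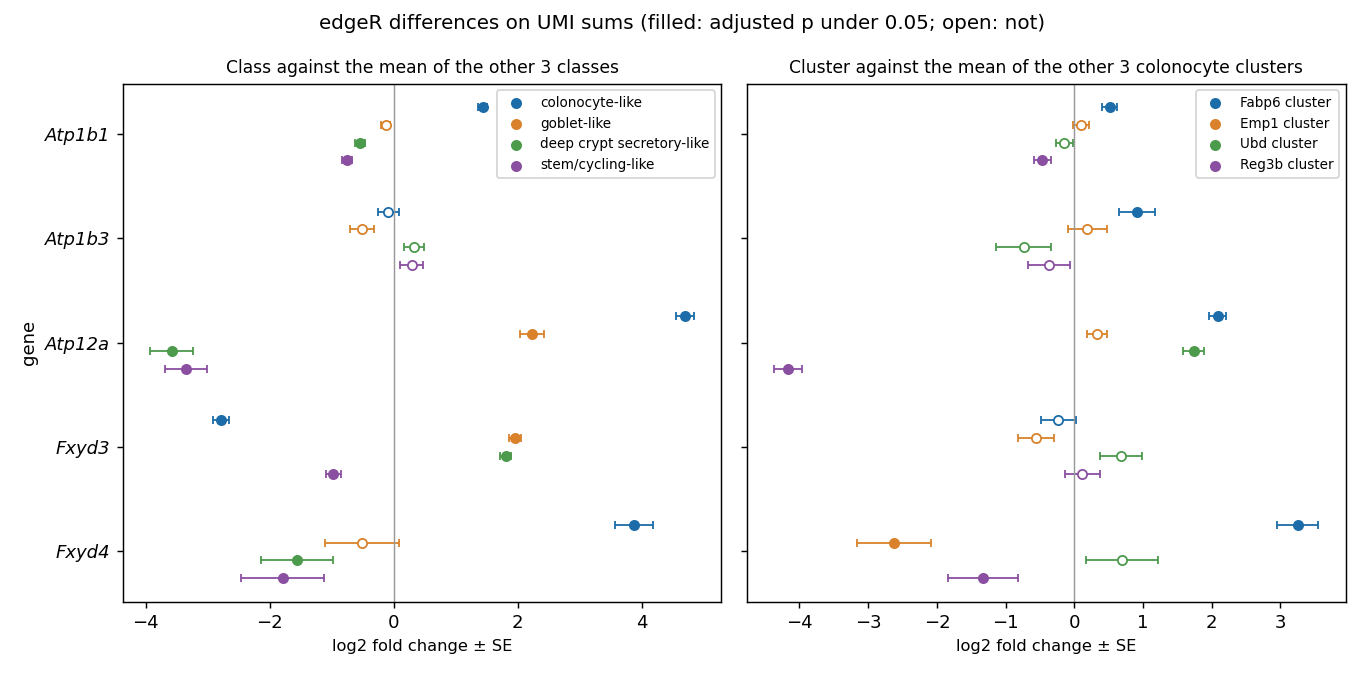
Log2 fold change (horizontal axis) with its SE for the 5 genes, from edgeR fits on UMI sums; the left panel sets each class against the mean of the other 3 classes, the right panel each colonocyte cluster against the mean of the other 3. Filled points passed an adjusted p of 0.05 and open points did not; Atp12a spans -3.58 to 4.70 between classes and -4.16 to 2.09 between colonocyte clusters.

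Colonocyte-like cells fell into 4 clusters, called here by their leading genes: Fabp6 (179 and 55 cells), Emp1 (128 and 38), Ubd (175 and 46) and Reg3b (93 and 47). The Ubd cluster was the shallowest, at medians of 1721 and 1971.5 UMIs with 10.6% and 13.3% of mitochondrial UMIs, against 5.31% to 5.88% in library 1 and 10.4% to 11.4% in library 2 for the other clusters. Its part in the results was tested by leaving it out. The Reg3b cluster had the lowest summed colonocyte markers, at 28037 and 19379 CPM, against 60014 and 48026 CPM in the Emp1 cluster.

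**Figure D3:**
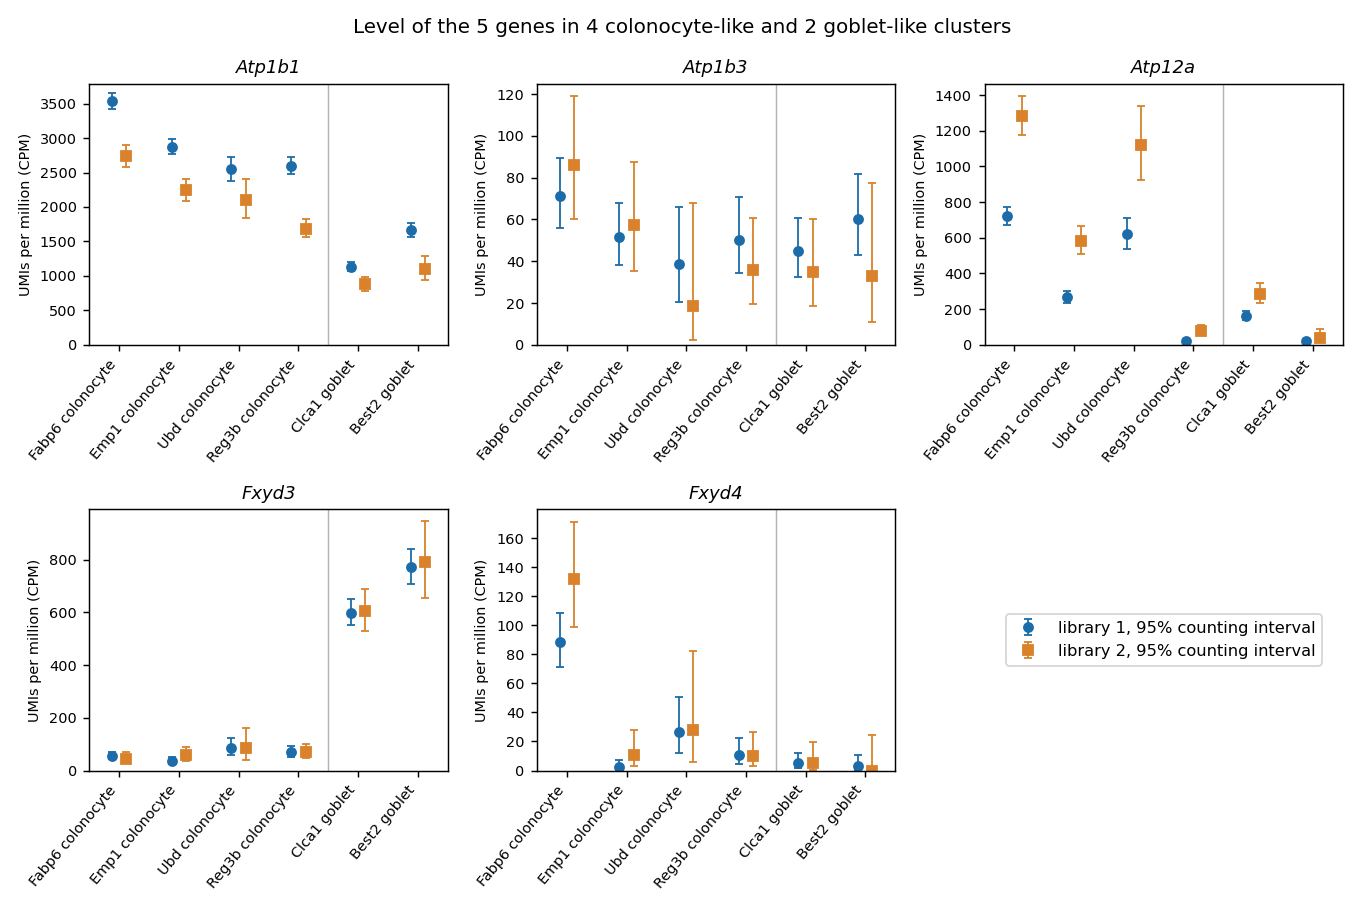
Level of each gene (CPM) in 4 colonocyte-like clusters and, right of the grey line, 2 goblet-like clusters; circles are library 1, squares library 2, bars 95% counting intervals. Atp12a is highest in the Fabp6 and Ubd clusters and lowest in the Reg3b and Best2 clusters, and Fxyd4 stands out in the Fabp6 cluster.

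Within colonocytes Atp12a and Fxyd4 varied most. Atp12a stood at 720.0 and 1282 CPM in the Fabp6 cluster, 619 and 1119 CPM in the Ubd cluster, 266 and 582 CPM in the Emp1 cluster and 18.8 and 77.2 CPM in the Reg3b cluster. Within each library the order was the same, and in library 1 the Reg3b cluster lay near the level of T cell-like cells. In library 2 the T cell-like level rests on 1 UMI. There the counting interval of the Reg3b cluster, 52.1 to 110 CPM, lay above that of deep crypt secretory-like cells, 4.35 to 19.9 CPM. Against the mean of the other 3 clusters, the log2 fold change was 2.09 ± 0.13 in the Fabp6 cluster (edgeR adjusted p = 9.52e-57), 1.74 ± 0.15 in the Ubd cluster (adjusted p = 1.1e-27) and -4.16 ± 0.20 in the Reg3b cluster (adjusted p = 2.06e-90), the last with -3.72 in library 2 alone and -4.79 in library 1 alone. In the Emp1 cluster it was 0.34 ± 0.15 (adjusted p = 0.184), and 1.08 (adjusted p = 2.87e-05) once the Ubd cluster was left out. Both are set against a mean of log2 levels that the Reg3b cluster, low in Atp12a, pulls down. By CPM the Emp1 cluster lay below the Fabp6 and Ubd clusters in each library. Thinned to 2000 UMIs, 64.0% and 87.3% of Fabp6 cluster cells had an Atp12a UMI, against 3.26% and 12.8% of Reg3b cluster cells.

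Fxyd4 lay mostly in the Fabp6 cluster, which held 148 of its 177 colonocyte UMIs. Its level was 88.5 and 132 CPM there, 26.7 and 28.2 CPM in the Ubd cluster from 9 and 3 UMIs, 2.10 and 10.9 CPM in the Emp1 cluster and 10.98 and 10.3 CPM in the Reg3b cluster. The counting interval of the Fabp6 cluster lay above those of the other 3 clusters in each library. Fxyd4 UMIs were found in a minority of Fabp6 cluster cells, 41 of 179 in library 1 and 17 of 55 in library 2. The highest count in a single cell was 10 and 9 UMIs. The level of the cluster is thus not that of each of its cells. Whether the cells without a UMI lacked Fxyd4 or were missed by counting was not tested. The log2 fold change was 3.25 ± 0.30 in the Fabp6 cluster (edgeR adjusted p = 4.42e-24) and -2.62 ± 0.54 in the Emp1 cluster (adjusted p = 6.77e-05). It was 0.70 ± 0.52 in the Ubd cluster (adjusted p = 0.564) and -1.32 ± 0.51 in the Reg3b cluster (adjusted p = 0.0482), a call lost under 5 of 7 alternative fits. In the Emp1 cluster library 2 alone gave -1.48 and library 1 alone -3.33. The Emp1 cluster, with the highest colonocyte markers, was thus low in Fxyd4 while its Atp12a was intermediate.

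Fxyd4 and Atp12a were also counted in the same cells. Thinned to 2000 UMIs, 66.7% of 33 colonocyte-like cells with an Fxyd4 UMI in library 1 had an Atp12a UMI, against 38.3% of those without, and in library 2 this was 100% of 9 cells, against 51.6%. Within the Fabp6 cluster the shares were 74.1% of 27 cells, against 62.3% without, in library 1, and 100% of 9 cells, against 84.8% without, in library 2. The exact 95% intervals of the compared shares did not overlap over all colonocyte-like cells and overlapped within the cluster. Cells of 1 animal are not replicates, so no test was made.

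Atp1b1 varied less within colonocytes, at 3532 and 2738 CPM in the Fabp6 cluster, 2874 and 2243 CPM in the Emp1 cluster, 2545 and 2106 CPM in the Ubd cluster and 2599 and 1686 CPM in the Reg3b cluster. The difference was 0.51 ± 0.11 in the Fabp6 cluster (edgeR adjusted p = 0.000366) and -0.47 ± 0.12 in the Reg3b cluster (adjusted p = 0.00137). Both calls were lost without library as a block (adjusted p = 0.640 and 0.337). Atp1b3 was 0.91 ± 0.26 higher in the Fabp6 cluster (adjusted p = 0.0120), at 71.3 and 86.1 CPM, against 38.5 and 18.8 CPM in the Ubd cluster, 51.4 and 57.4 CPM in the Emp1 cluster and 50.2 and 36.0 CPM in the Reg3b cluster. That call was lost with DESeq2's Wald test, without library as a block and with sums thinned to equal depth. Fxyd3 passed the test in no colonocyte cluster, at 37.8 to 85.9 CPM. Against Fxyd4, Fxyd3 made up 38.4% and 25.7% of the UMIs of both in the Fabp6 cluster, and 94.7% and 84.0% in the Emp1 cluster.

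In the Fabp6 cluster 4 of the 5 genes were thus higher and 0 lower, where 4.59% of the 5623 genes tested were called, 3.38% higher and 1.21% lower. In the Ubd cluster 1 was higher, where 5.96% were called, 3.18% higher and 2.77% lower. In the Emp1 cluster 1 was lower, where 6.31% were called, 3.95% higher and 2.37% lower. In the Reg3b cluster 3 were lower, where 19.5% were called, 11.6% higher and 7.93% lower. The cluster comparisons are linked as well, so a gene high or low in 1 cluster is shifted the other way in the rest. The 5 genes were named with results of these cells known, so these counts are descriptions. Colonocyte clusters share a library, and an edgeR fit on 8 sums of 106368 to 1051381 UMIs stands behind them.

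The genes were also followed along the first principal component of colonocyte-like cells, which needs no cluster borders. In 5 bins from low to high, Atp12a stood at 64.1, 340.1, 589, 722 and 754 CPM in library 1 and at 93.9, 303, 1119.9, 1571 and 1053 CPM in library 2. It climbed to the fourth bin in both libraries. Atp1b1 ranged from 2796 to 3209 CPM in library 1 and from 1758 to 2814 CPM in library 2. Depth moved along the same axis, with medians of 7502 UMIs in the first bin and 1738 in the last in library 1, and 9688.5 and 2526 in library 2. Cluster make-up moved too: Reg3b cluster cells were 73.0% and 94.7% of the first bin and Ubd cluster cells 85.2% and 89.2% of the last. The parts of depth and cluster in this trend were not tested.

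**Figure D4:**
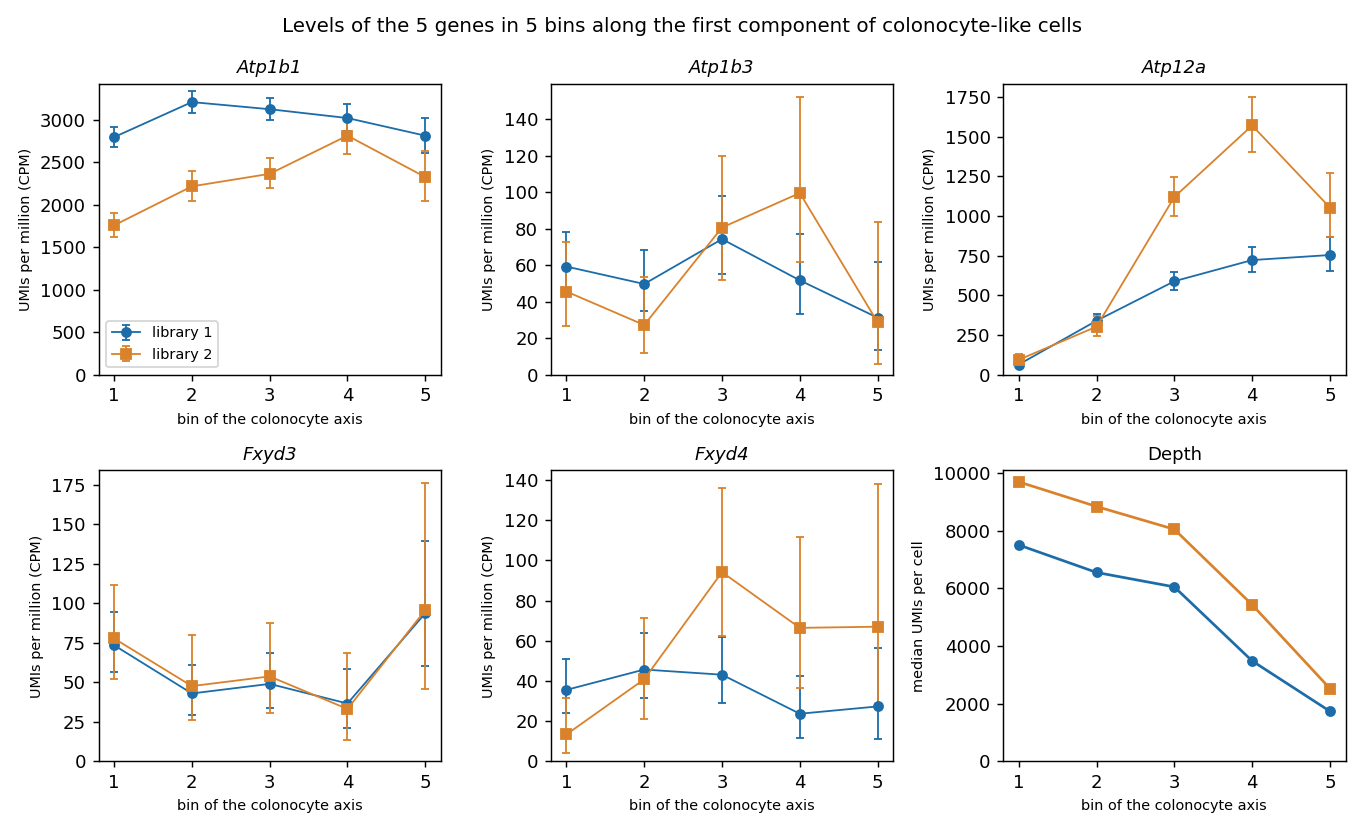
Level of each gene (CPM) in 5 bins of equal cell number along the first principal component of colonocyte-like cells, with the median UMIs per cell of each bin in the last panel; circles are library 1, squares library 2, bars 95% counting intervals. Atp12a climbs from the first to the fourth bin in both libraries while depth falls, and Atp1b1 stays within a narrower range.

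The 2 libraries differed in level for 2 of the genes. Atp12a was higher in library 2 in 10 of the 11 clusters, with a median ratio of 1.81, and Atp1b1 was lower in library 2 in 10 of the 11, with a median ratio of 0.775. For Fxyd3 the ratio was above 1 in 5 of 11 clusters and for Atp1b3 in 4 of 11. The median mitochondrial share was 8.91% in library 2 and 4.43% in library 1, and its part in these differences was not tested.

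Of 15 related pump and FXYD genes counted here, 7 had at least 20 UMIs over the classes, and in colonocyte-like cells 1 of these passed as higher and 2 as lower, where 39.5% of all genes were called. The higher one was Atp1b2, another beta subunit (1.74 ± 0.16, edgeR adjusted p = 1.38e-11). The lower ones were Nkain2 (-3.64 ± 0.93, adjusted p = 0.00162) and Fxyd1, the regulator also called phospholemman (-1.65 ± 0.67, adjusted p = 0.0491), with 37 and 80 UMIs in all cells. Nkain3 and Atp1b2 were the most abundant of the list, with 622 and 337 UMIs in library 1 and 284 each in library 2. Atp4a, the gastric proton pump, had 16 and 3 UMIs and Fxyd2, the kidney gamma subunit, 5 and 5. Within colonocytes 0 of 3 tested were called by edgeR in the Fabp6 cluster (0 at an unadjusted p under 0.05 as well), and Nkain3 was higher in the Ubd cluster (1.42 ± 0.27, adjusted p = 8.55e-06) and lower in the Emp1 cluster (-1.12 ± 0.26, adjusted p = 0.000583). Atp1b2 was lower in the Reg3b cluster (-0.90 ± 0.23, adjusted p = 0.00122).

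Of 17 genes tested that encode channels and exchangers for sodium, chloride or potassium, or the exchanger scaffold Slc9a3r1, 7 passed as higher and 6 as lower in colonocyte-like cells, where 20.3% and 19.2% of all genes did. The largest differences were Slc26a3 (5.65 ± 0.10, edgeR adjusted p = 2.37e-34), the sodium-proton exchanger Slc9a2 (4.85 ± 0.14, adjusted p = 2.54e-27), the basolateral sodium-potassium-chloride cotransporter Slc12a2 (-4.55 ± 0.15, adjusted p = 2.18e-25) and the sodium channel subunit Scnn1b (-3.08 ± 0.92, adjusted p = 0.00683). Scnn1b rests on few UMIs, 49 in library 1 and 22 in library 2 over all cells. The Reg3b cluster, low in Atp12a, had 4 of 13 higher and 5 lower, where 11.6% and 7.93% of all genes were. Among them were the potassium channel subunit Kcne3 (2.61 ± 0.37, adjusted p = 7.13e-11) and the chloride channel Cftr (2.32 ± 0.41, adjusted p = 2.99e-07), both higher, and the potassium channel Kcnn4 (-2.85 ± 0.26, adjusted p = 1.12e-26), lower. In goblet-like cells 6 were higher and 6 lower, where 12.1% and 7.76% of all genes were, and Scnn1b was 4.36 ± 0.45 higher (adjusted p = 5.10e-10).

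Genes of the corticosteroid pathway, which is known to raise sodium transport in the colon, were counted because Fxyd4 is named for its response to it. Among the 13 tested, colonocyte-like cells had 8 higher and 3 lower, where 20.3% and 19.2% of all genes were. The kinase gene Sgk1 (3.54 ± 0.18, edgeR adjusted p = 3.67e-19), Zbtb16 (3.20 ± 0.40, adjusted p = 1.45e-08) and Fkbp5 (2.74 ± 0.21, adjusted p = 8.36e-14) were among the higher ones. Nr3c2, the mineralocorticoid receptor, was 1.00 ± 0.14 higher in colonocyte-like cells (adjusted p = 2.65e-07) and 1.20 ± 0.16 higher in goblet-like cells (adjusted p = 1.05e-07). Hsd11b2, the enzyme that inactivates glucocorticoids in cells that respond to aldosterone, was lower in colonocyte-like cells (-0.36 ± 0.09, adjusted p = 0.000809) and 3.15 ± 0.08 higher in goblet-like cells (adjusted p = 1.96e-29). Within colonocytes, in the Fabp6 cluster, where Fxyd4 was highest, 0 of 12 tested were higher and 2 lower (3.38% and 1.21% of all genes), namely Sgk1 (-1.07 ± 0.20, adjusted p = 6.24e-06) and the protease gene Prss8 (-1.80 ± 0.47, adjusted p = 0.00398), while Nr3c2 differed by 0.14 ± 0.19 (adjusted p = 0.883). Sgk1 was higher in the Emp1 cluster (1.56 ± 0.16, adjusted p = 1.68e-18), where Fxyd4 was low.

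Of 17 tested subunits of the vacuolar proton pump, which acidifies organelles, colonocyte-like cells had 11 higher and 2 lower (20.3% and 19.2% of all genes), with a median difference of 0.38. The largest differences were Atp6v0d2 (-3.02 ± 0.87, edgeR adjusted p = 0.00498), Atp6ap2 (-1.25 ± 0.11, adjusted p = 2.19e-12), Atp6v0a2 (1.17 ± 0.12, adjusted p = 1.19e-10) and Atp6v1d (0.97 ± 0.17, adjusted p = 1.08e-05). Atp6v0d2 rests on few UMIs, 40 in library 1 and 18 in library 2 over all cells. In goblet-like cells 10 were higher and 0 lower, where 12.1% and 7.76% of all genes were. In stem/cycling-like cells 0 were higher and 12 lower, where 13.2% and 13.5% of all genes were. Within colonocytes, in the Fabp6 cluster 0 of 16 were called by edgeR (adjusted p), with 3 at an unadjusted p under 0.05.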

How the data were processed

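The 2 deposited tables, 1 per library, hold whole-number UMI counts per gene and barcode, which the authors did not normalize. Builds named by the submitters' processing notes are GRCh38 and GRCm38. For the aligner, annotation, counting strand and barcode filter, the entry is "not given in the sources used here", so counts of overlapping, antisense and near-identical genes are uncertain. Barcodes are numbered, not spelled out, and 0 had identical counts in both libraries. All barcodes had at least 500 UMIs and 250 genes. The top 5% by doublet score against simulated pairs (87 and 33 barcodes) were left out. Genes were split by a hash of their symbol into 12740 clustering and 12764 readout genes. Markers were clustering genes, while the members and lists were readout genes. Cells were clustered by Leiden (leidenalg 0.10.2, resolution 1) on 30 components of 1500 variable genes. UMI sums per library and class, or colonocyte cluster, were tested with edgeR 4.0.16 (quasi-likelihood, TMM, library as a block, at least 20 UMIs, Benjamini-Hochberg over all genes of a comparison, threshold 0.05). The library is the pairing: all classes of a library were counted in the same library of the same animal. SEs were taken from the log2 fold change and its F statistic. Intervals are exact Poisson or Clopper-Pearson at 95%, and intervals and floors cover counting error only.

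The members and lists were chosen with earlier results of these data known, and member levels were in view while the clustering recipe was settled among 3 versions, before any test. Named genes were the members, Nr3c2, Hsd11b2, at most 4 called genes per list by size of change, and 5 most alike per member. 1 further gene of that rule is not reported here and was left out of its list. The edgeR fit was tested on simulated counts. Alternatives were DESeq2 1.42.0 (test and size factors), no low-count filter, no block, thinned sums, no doublet filter, resolution 0.5, clustering and readout genes exchanged, cells under 20% mitochondrial UMIs, other references and single libraries.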

Additional observations from a re-analysis of the deposited data

How the results depend on the processing

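Of the 23 differences called for the 5 genes, 23 kept their sign in each library alone, without a test. The calls were made from these same libraries, so a kept sign is largely fixed in advance. For 8 of the 23 the value moved over 1.5-fold in at least 1 library alone. Over 202 alternative fits of the 23 differences, 176 kept the call, 25 lost it and 1 reversed. Atp12a in goblet-like cells was the reversed one, at -0.65 against all other epithelial cells summed. Hsd11b2 in deep crypt secretory-like cells also turned there, to -0.24. That comparison sums UMIs in place of averaging log2 levels over classes, and with it 42.3% of the genes called in deep crypt secretory-like cells were higher, not 57.3%. Counts of called genes moved more. DESeq2's Wald test called 1998 in colonocyte-like, 1085 in deep crypt secretory-like, 983 in goblet-like and 1318 in stem/cycling-like cells, and 116, 149, 116 and 442 in the Fabp6, Ubd, Emp1 and Reg3b clusters. Main counts, in the same order, were 3186, 1950, 1596 and 2150, and 258, 335, 355 and 1099. Without library as a replicate block the counts were 1110 in deep crypt secretory-like, 937 in goblet-like and 1391 in stem/cycling-like cells, and 85, 100, 64 and 633 in the clusters. With sums thinned to equal depth they were 1795 in colonocyte-like, 1197 in deep crypt secretory-like and 1001 in goblet-like cells, and 107, 195, 122 and 434 in the clusters. With clustering and readout genes exchanged, deep crypt secretory-like cells had 1110, and without cells over 20% mitochondrial UMIs the Ubd cluster had 172. In the Reg3b cluster 44.2% of calls were higher without the Ubd cluster, and 59.4% with it. The causes of these moves were not tested, beside fewer UMIs in thinned sums. Depth limits Fxyd4, with few UMIs outside colonocyte-like cells, and Atp1b3 in T cell-like cells.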
